A study of Mus musculus with 10 samples.

Results

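The genes of the major histocompatibility complex (MHC) and of antigen processing were followed in the ileum of adult mice in which the transcription factors Sox2 and Oct4 had been induced. Members were all array probes whose name in the files begins with H2-, the prefix of the mouse MHC, together with those named B2m, Tap1, Tap2, Tapbp, Psmb8, Psmb9, Psmb10, Psme1, Psme2, Nlrc5, Ciita or Cd74. This gave 69 probes of 44 genes, among 41174 non-control probes with 27845 names. Class I comprised 40 probes of 24 genes (heavy chains and B2m), class I processing 11 probes of 8 genes and class II 16 probes of 10 genes. The other 2 probes, H2-Ke2 and H2-Ke6, carry the prefix from their position in the complex and encode no MHC molecule. No probe bore the name Nlrc5, Ciita or H2-D1. Of the 69 probes, 60 of 39 genes lay on chromosome 17 by the coordinates in the files (build NCBI36/mm8), 8 probes of 5 genes lay elsewhere (B2m on chromosome 2, Psmb10 on 8, Psme1 and Psme2 on 14, Cd74 on 18), and 1 H2-Ab1 probe had no coordinates.

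RNA of whole ileum from C57BL/6 mice aged 6 to 8 weeks was hybridised to 10 Agilent 1-colour arrays, 2 in each of 5 groups. In TetON mice the drug doxycycline (DOX) lets the protein rtTA switch a transgene on. Mice of the line TetON-Sox2 formed a pair of groups, one left untreated (Sox2 -DOX) and the other treated (Sox2 +DOX). DOX was also given to control mice of the rtTA line, which carry no Sox2 transgene (rtTA +DOX), to the TetON-Oct4 line (Oct4 +DOX) and to the cross TetON-Sox2 X TetON-Oct4 (Sox2xOct4 +DOX). DOX was given for 2 days at 2 mg/ml in drinking water with 1% sucrose. Sucrose is not recorded for the untreated group, so a comparison with it holds DOX, sucrose and the transgene together. The sources used here do not give the promoter that drives rtTA. The labels number the 2 samples of a group without saying that they came from separate mice. The p-values therefore measure the spread between these samples, which may be technical in any group but Oct4 +DOX.

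Class I molecules are displayed by nearly all cells and carry peptides from the cytosol. The peptides are cut by the proteasome, pumped into the endoplasmic reticulum by the Tap1 and Tap2 transporter, and loaded with the help of tapasin (Tapbp) onto a heavy chain bound to the light chain B2m. Class II molecules present peptides from endosomes, are chaperoned there by the invariant chain Cd74 and exchange peptides with the help of H2-DM, which H2-O inhibits. Dendritic cells, macrophages and B cells carry class II, and the epithelium of the small intestine does so as well. Interferon gamma induces both classes, and class II transcription depends on the transactivator Ciita.

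Slide 1 held both TetON-Sox2 groups, slide 2 held rtTA +DOX and Sox2xOct4 +DOX, and slide 3 held Oct4 +DOX. In comparisons between slides, slide and group cannot be told apart. Between 63.5 and 70.5% of probes were well above background, and replicates correlated at r of 0.957 to 0.983. Pou5f1, which encodes Oct4, was well above background on the Oct4 +DOX and Sox2xOct4 +DOX arrays and on no other, whereas the Sox2 probe was above background nowhere and does not check the Sox2 labels. The Y-linked gene Eif2s3y was present on the 4 TetON-Sox2 arrays and on Oct4 +DOX replicate 1, and the other 5 arrays carried Xist, a transcript of the inactive X chromosome. The 2 samples of Oct4 +DOX thus differed in these transcripts and were not repeats of 1 mouse. The 2 within-slide comparisons therefore each set arrays with the same sex-linked transcript against each other. Precision is limited throughout by having 2 arrays in a group.

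Levels are given as log2 signal minus the 75th percentile of the array, and differences as log2 differences of group means, negative where the first group is lower. Of the 69 probes, 59 of 35 genes reached signals well above background on each array of some group and were tested with limma over 28761 probes. A probe is said to have fallen or risen only at a Benjamini-Hochberg adjusted p under 0.05. The probes not tested were those of H2-M1, H2-M10.1, H2-M10.3, H2-M10.4, H2-M10.6, H2-M11 and H2-M9, heavy chains of the M region, 1 of the 2 H2-T24 probes, the probe of H2-M10.5, whose spots were flagged, and that of H2-Ea. H2-Ea encodes a chain that C57BL/6 mice are known not to make, and its probe was not well above background on any array.

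Between Sox2 +DOX and Sox2 -DOX, 26 of the 59 tested probes fell and none rose. Among all 28761 probes 4.07% fell and 2.77% rose. The 26 probes belonged to 17 genes, and the median difference of the 59 probes was -1.37 on the log2 scale, against -0.09 for all probes tested. The arrays of the 2 groups did not overlap for 53 probes that were lower in Sox2 +DOX, where 35.9% of all probes did so, and for 3 that were higher, where 29.8% did so. The calls covered chromosome 17 (20 probes of 14 genes and the H2-Ab1 probe without coordinates) and other chromosomes (5 of 8 probes, those of B2m, Psmb10 and Cd74). The count depended on single arrays. Leaving out Sox2 -DOX replicate 1 gave 1 call and leaving out its replicate 2 gave 4. Leaving out Sox2 +DOX replicate 1 gave 3 calls and leaving out its replicate 2 gave 25. The count was 15 when only the 4 arrays of the comparison were fitted.

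The class II genes showed the largest median difference of the 3 classes. Of 15 tested class II probes 11 fell, those of 6 of the 9 tested genes, and the median difference was -3.11. The genes that fell encode the presenting chains (H2-Aa, H2-Ab1, H2-Eb1), the peptide exchange factor (H2-DMa, H2-DMb1) and the invariant chain (Cd74). The remaining 4 probes, of H2-DMb2 and of the DM inhibitor chains H2-Oa and H2-Ob, did not pass the test. Each of the 15 values was below 0, and for 14 the arrays did not overlap.

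**Figure D1:**
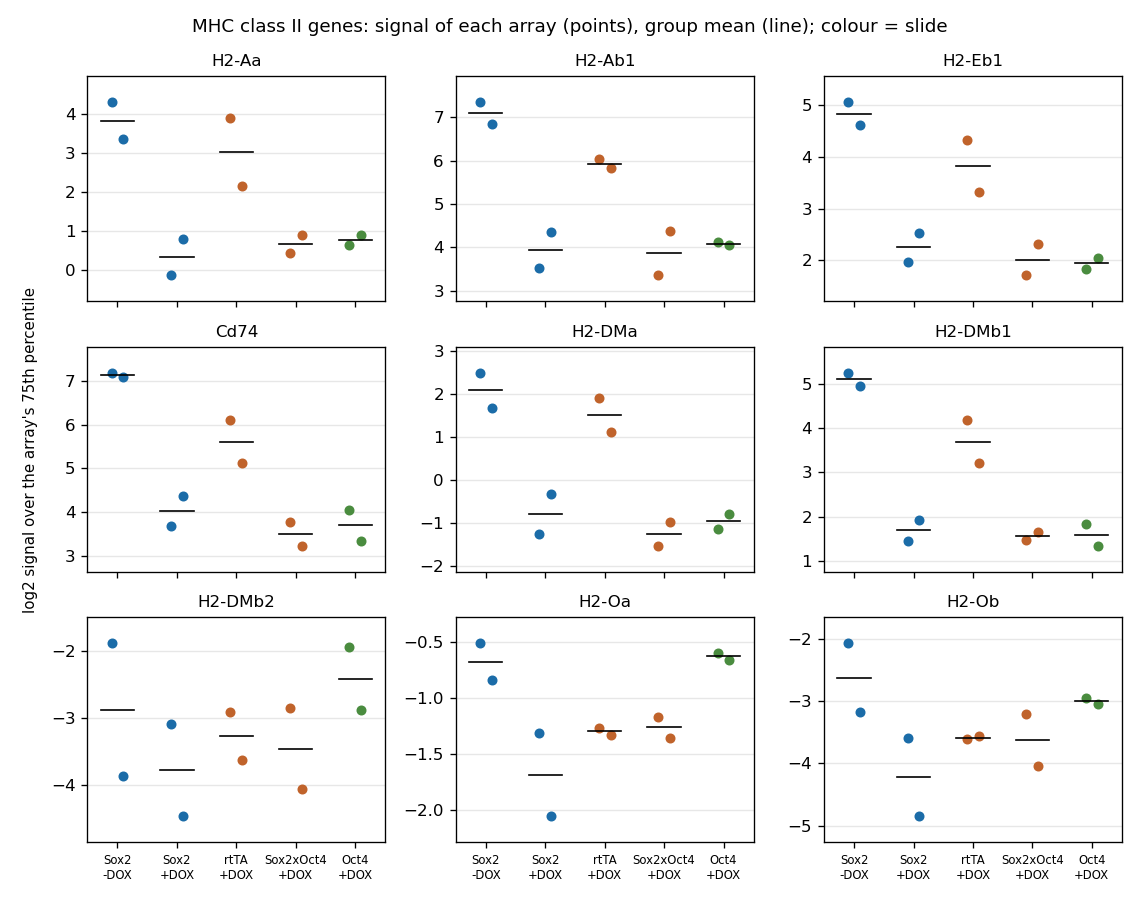
Log2 signal relative to each array's 75th percentile (vertical axis, scaled separately for each gene) of the 9 tested class II genes, by the probe with the highest mean; points are the 2 arrays of each of 5 groups, lines are group means and colours are slides. For Cd74, H2-Ab1 and H2-DMb1 both Sox2 -DOX arrays lie highest, the rtTA +DOX arrays next and the 6 arrays with an induced transgene lowest, whereas H2-DMb2, H2-Oa and H2-Ob show no such order.

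The chains of the I-A molecule, H2-Aa and H2-Ab1, had 6 probes, and all 6 fell. The H2-Ab1 probe with the highest mean (chr17:33877309-33877368, plus strand) read 7.35 and 6.86 in Sox2 -DOX, 3.53 and 4.36 in Sox2 +DOX, 6.03 and 5.83 in rtTA +DOX, 3.36 and 4.37 in Sox2xOct4 +DOX and 4.12 and 4.05 in Oct4 +DOX. All 6 arrays with an induced transgene were thus below all 4 without one. The difference between Sox2 +DOX and Sox2 -DOX was -3.16 ± 0.42 (SE, 2 arrays against 2, limma adjusted p = 0.0067), an 8.92-fold fall. The 3 other H2-Ab1 probes gave -3.33, -3.15 and -3.18. The last 2 of these overlap over 31 bases, of which 2 differ, so their values may not be separate measurements.

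H2-Aa, the partner chain of H2-Ab1, read 4.32 and 3.36 in Sox2 -DOX, 3.91 and 2.17 in rtTA +DOX and between -0.13 and 0.90 on the 6 arrays with an induced transgene. The 2 arrays of rtTA +DOX lay far apart. The fall after Sox2 induction was 11.3-fold (-3.50 ± 0.60, limma adjusted p = 0.015), and the second H2-Aa probe gave -3.53. H2-Eb1, the beta chain of I-E, read 5.05 and 4.60 in Sox2 -DOX and 1.98 and 2.52 in Sox2 +DOX (-2.58 ± 0.41, limma adjusted p = 0.012). Its other arrays read 4.32 and 3.32 in rtTA +DOX, 1.72 and 2.31 in Sox2xOct4 +DOX and 1.84 and 2.05 in Oct4 +DOX, again with no overlap between arrays with and without an induced transgene.

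Cd74, which fills the groove of new class II molecules, read 7.19 and 7.08 in Sox2 -DOX, 3.68 and 4.36 in Sox2 +DOX, 6.09 and 5.12 in rtTA +DOX, 3.77 and 3.23 in Sox2xOct4 +DOX and 4.05 and 3.35 in Oct4 +DOX. The Sox2 -DOX arrays were the highest and the rtTA +DOX arrays the next. Cd74 was 8.62-fold lower in Sox2 +DOX than in Sox2 -DOX (-3.11 ± 0.44, limma adjusted p = 0.0077).

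H2-DMa and H2-DMb1 together form H2-DM, the catalyst of peptide exchange. H2-DMb1 read 5.26 and 4.96 in Sox2 -DOX, 1.45 and 1.93 in Sox2 +DOX, 4.18 and 3.21 in rtTA +DOX, 1.46 and 1.65 in Sox2xOct4 +DOX and 1.82 and 1.34 in Oct4 +DOX. Its fall (-3.42 ± 0.39, limma adjusted p = 0.0039) was called in each of the 4 fits that left out 1 array of the comparison, the only probe among the 22 whose values were followed through every alternative for which this was so. H2-DMa read 2.51 and 1.68 in Sox2 -DOX and -1.25 and -0.31 in Sox2 +DOX (-2.87 ± 0.46, limma adjusted p = 0.012). The neighbouring gene H2-DMb2, which encodes a further DM beta chain, read -1.89 and -3.86 in Sox2 -DOX and -3.10 and -4.46 in Sox2 +DOX, so that the arrays overlapped (-0.90, limma adjusted p = 0.47).

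H2-Oa and H2-Ob form H2-O, the inhibitor of H2-DM that B cells are known for. The H2-Oa probe with the higher mean read -0.51 and -0.84 in Sox2 -DOX and -1.31 and -2.06 in Sox2 +DOX (-1.01, limma adjusted p = 0.095). H2-Ob read -2.07 and -3.17 in Sox2 -DOX and -3.58 and -4.85 in Sox2 +DOX (-1.60, limma adjusted p = 0.099). Neither passed the test, although the arrays did not overlap for either gene.

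The class II genes share a promoter feature that the choice of members did not use, and the stretches from position -120 to -30 relative to the start site are shown to set genes that fell beside genes that did not pass the test. Promoter windows of one length around the start came from RefSeq on GRCm38.p6, and 7 of the 10 class II genes had one. The Y box GATTGG, the binding sequence of the factor NF-Y, was searched on both strands and was found in 7 of the 8 class II promoters, against 16.11% of 32851 promoters. Each of the 7 genes had it at some start site, and the promoter without it was 1 of the 2 of H2-DMa. Capitals mark the Y box and, in H2-Eb1 alone, the X1 box, a letter match held by 0.07% of promoters. A match is a description of the letters and not evidence of binding.
H2-Aa: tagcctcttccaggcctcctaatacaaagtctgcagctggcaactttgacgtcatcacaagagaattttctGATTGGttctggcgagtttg
H2-Eb1: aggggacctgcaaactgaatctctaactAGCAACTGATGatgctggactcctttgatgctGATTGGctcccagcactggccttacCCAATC
H2-DMb1: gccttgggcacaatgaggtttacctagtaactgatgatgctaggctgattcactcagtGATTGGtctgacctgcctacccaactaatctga
H2-DMb2: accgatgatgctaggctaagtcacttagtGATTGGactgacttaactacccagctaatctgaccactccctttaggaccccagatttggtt
H2-Oa: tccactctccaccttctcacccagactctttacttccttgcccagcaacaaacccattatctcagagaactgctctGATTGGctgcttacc
H2-Ob: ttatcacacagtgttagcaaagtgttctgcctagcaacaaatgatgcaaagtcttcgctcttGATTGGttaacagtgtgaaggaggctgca
The first 3 genes fell after Sox2 induction and the last 3 did not pass the test, and all 6 hold the Y box within these bases. In the order printed they are chr17:34287853-34287943 (minus strand), chr17:34305747-34305837, chr17:34153071-34153161, chr17:34145129-34145219, chr17:34092259-34092349 and chr17:34238785-34238875 (plus strand), all on GRCm38.p6.

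Of 31 tested class I probes 9 fell, of 6 of 16 tested genes, with a median difference of -1.31. The light chain B2m, shared by all class I molecules, accounted for 3 of the 9. The probe of B2m with the highest mean (chr2:121844106-121844165, plus strand) read 6.46 and 6.17 in Sox2 -DOX, 3.70 and 4.68 in Sox2 +DOX, 5.59 and 5.12 in rtTA +DOX, 4.05 and 4.29 in Sox2xOct4 +DOX and 5.49 and 4.80 in Oct4 +DOX. The Sox2 +DOX and Sox2xOct4 +DOX arrays were the 4 lowest, and the Oct4 +DOX arrays overlapped with rtTA +DOX. B2m fell 4.35-fold (-2.12 ± 0.41, limma adjusted p = 0.022), and its other probes gave -1.85 and -2.19.

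No probe of H2-K1, the classical class I heavy chain measured here, passed the test. Its brightest probe read 7.97 and 7.78 in Sox2 -DOX, 6.63 and 7.19 in Sox2 +DOX, 7.08 and 7.22 in rtTA +DOX, 6.97 and 7.85 in Sox2xOct4 +DOX and 7.51 and 7.87 in Oct4 +DOX. The Sox2 -DOX arrays did not overlap with Sox2 +DOX, with a difference of -0.97 ± 0.37 (limma adjusted p = 0.14). H2-T23, the heavy chain of the natural killer receptor ligand Qa-1, read 7.25 and 6.68 in Sox2 -DOX and 5.33 and 5.88 in Sox2 +DOX (-1.36 ± 0.39, limma adjusted p = 0.074). H2-M3, which presents formylated bacterial peptides, read 0.63 and 0.83 against -0.31 and 0.09 (-0.85 ± 0.29, limma adjusted p = 0.12).

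Among the other heavy chains, probes of the same gene could differ in sign. H2-Q10 had 5 probes with differences of -1.28, -1.02, 0.28, 1.00 and -1.68, of which the last alone passed the test (limma adjusted p = 0.042). H2-Q1 had 3 probes at -1.12, -2.44 and -1.31, and the second of these fell (limma adjusted p = 0.049). H2-Bl had 2 probes that overlap in sequence and both gave -3.94 (limma adjusted p = 0.020 and 0.024), and another at -1.16 (limma adjusted p = 0.20). The first of them read 2.26 and 2.63 in Sox2 -DOX, and -2.92 and -0.08 in Sox2 +DOX, so the Sox2 +DOX arrays differed widely from each other. H2-Q8 fell by 1.37 (limma adjusted p = 0.044). It read 0.85 and 0.76 in Sox2 -DOX, -0.62 and -0.52 in Sox2 +DOX and -0.26 and -0.77 in rtTA +DOX. Sox2 +DOX thus differed from rtTA +DOX by -0.05 (limma adjusted p = 0.93). H2-T24 was not well above background on either Sox2 +DOX array and was at least 1.56-fold lower there (limma adjusted p = 0.039, means of -5.71 and -7.60). H2-M10.2, of the M region, gave -2.46 (limma adjusted p = 0.10). The 3 probes of H2-T22, a ligand of gamma delta T cells, differed by -0.42 to -0.52 and did not pass the test.

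Class I genes are close copies of each other, and the sequences of the member probes were searched for runs they share. Probes were not compared with the transcripts of other genes. A probe without a shared run may therefore also detect more than 1 gene. Of the tested heavy chain probes, 8 shared a run of at least 16 bases with a probe of another gene. The longest shared run, of 35 bases, joined H2-Q10 and H2-Q5, and the shared letters are in capitals.
H2-Q10: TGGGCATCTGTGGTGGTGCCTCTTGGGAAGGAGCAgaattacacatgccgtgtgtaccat
H2-Q5: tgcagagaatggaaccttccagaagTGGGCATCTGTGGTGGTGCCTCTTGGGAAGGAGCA
H2-K1: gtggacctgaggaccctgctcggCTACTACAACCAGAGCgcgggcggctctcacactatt
H2-Bl: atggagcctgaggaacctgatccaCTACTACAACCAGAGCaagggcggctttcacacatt
The H2-Q10 probe (chr17:35081318-35081377, plus strand) and the H2-Q5 probe (chr17:35717972-35718406, minus strand) gave -1.28 and -1.37 after Sox2 induction. The H2-K1 probe (chr17:33609987-33610233, minus strand) and the H2-Bl probe (chr17:35691549-35691795, minus strand), which share 16 bases, gave -1.47 and -1.16. None of these 4 probes passed the test. Where the transcripts cross-hybridise, their values are not separate measurements.

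Of 11 tested probes of class I processing 6 fell, of 5 of the 8 genes, with a median difference of -1.67, and all 11 values were below 0 with no overlap of arrays. H2-Ke2, a prefoldin subunit, and H2-Ke6, a steroid dehydrogenase, which only share the prefix, gave 0.56 and 0.52 and did not pass the test. The immunoproteasome subunits Psmb8, Psmb9 and Psmb10, which replace the constitutive catalytic subunits under interferon, were lower on all 4 of their probes. Psmb9 read 4.28 and 4.24 in Sox2 -DOX, 1.59 and 2.55 in Sox2 +DOX, 3.50 and 3.30 in rtTA +DOX, 2.60 and 2.16 in Sox2xOct4 +DOX and 3.47 and 3.28 in Oct4 +DOX. The fall after Sox2 induction was 4.58-fold (-2.19 ± 0.36, limma adjusted p = 0.013). Psmb8 fell by 1.74 and 2.17 on its 2 probes (limma adjusted p = 0.019 and 0.013) and Psmb10 by 1.26 (limma adjusted p = 0.037).

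The transporter gene Tap1 read 1.08 and 0.99 in Sox2 -DOX, -1.62 and -0.99 in Sox2 +DOX, 0.34 and -0.69 in rtTA +DOX, -0.62 and -0.65 in Sox2xOct4 +DOX and 0.13 and 0.10 in Oct4 +DOX. It was 5.06-fold lower in Sox2 +DOX than in Sox2 -DOX (-2.34 ± 0.38, limma adjusted p = 0.013). Its partner Tap2 read 1.36 and 1.00 in Sox2 -DOX, -1.27 and -0.001 in Sox2 +DOX and 1.11 and -0.09 in rtTA +DOX. Tap2 did not pass the test between Sox2 +DOX and Sox2 -DOX (-1.81 ± 0.51, limma adjusted p = 0.070). Tapbp fell on 1 of 2 probes, by 1.67 (limma adjusted p = 0.037), and the other gave -1.15 (limma adjusted p = 0.29). The proteasome activator genes Psme1 and Psme2 gave -0.79 to -0.85 and did not pass the test.

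**Figure D2:**
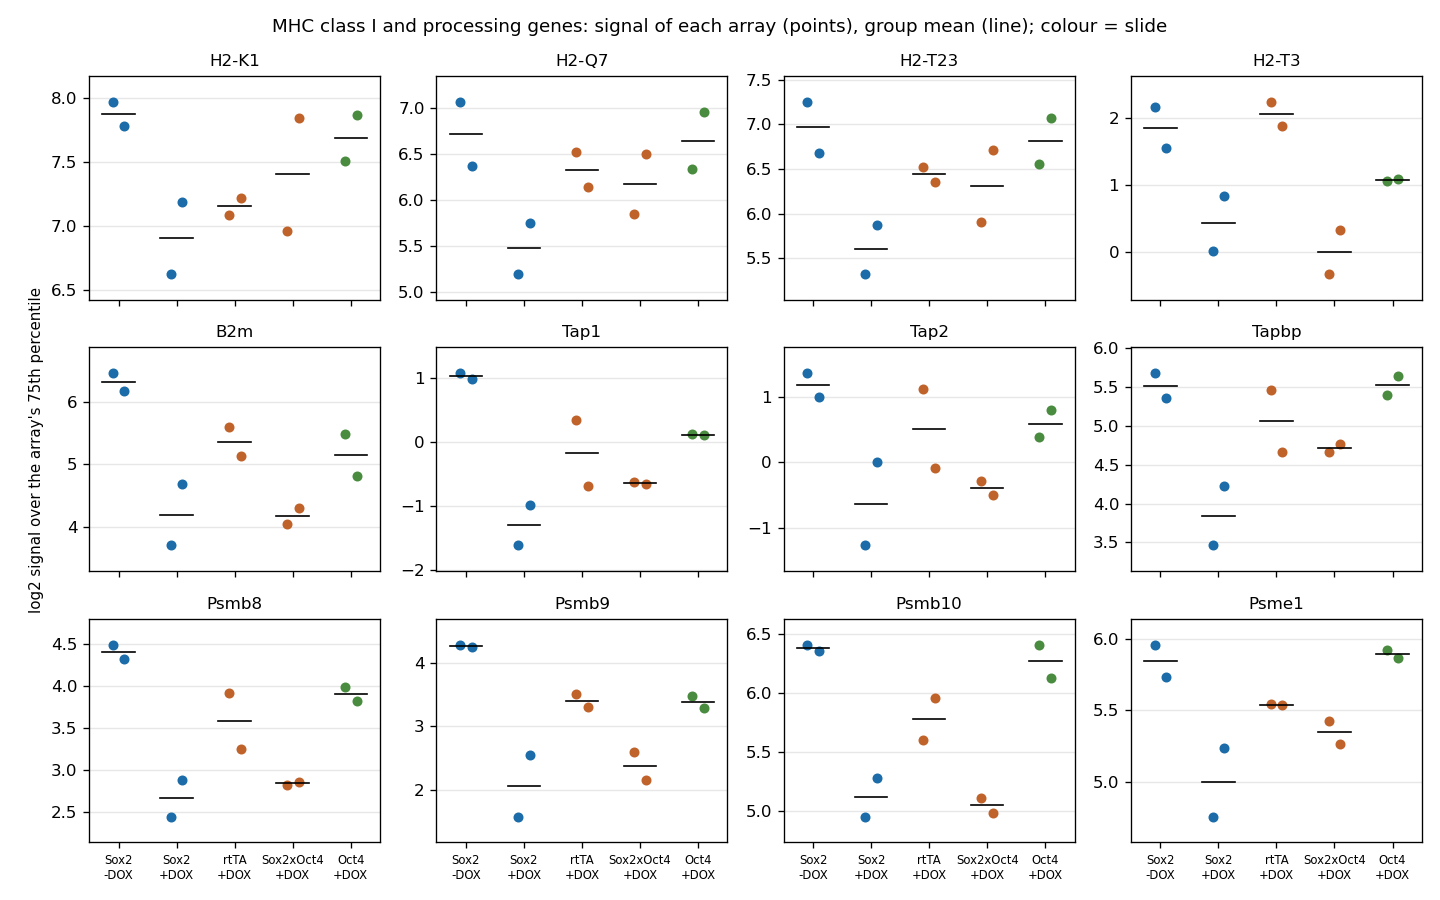
Log2 signal relative to each array's 75th percentile (vertical axis, scaled separately for each gene) of 4 class I heavy chains, B2m and 7 processing genes, by the probe with the highest mean; points are the 2 arrays of each group, lines are group means and colours are slides. For Tap1, Psmb8 and Psmb9 the Sox2 -DOX arrays lie above the Sox2 +DOX arrays, and the Oct4 +DOX arrays lie within or close to the range of rtTA +DOX.

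The promoters of B2m, H2-T22 and H2-T23 held, besides a Y box, the core of the interferon-stimulated response element (ISRE) on either strand. Those of B2m and H2-T23 are shown to set a gene that fell beside one that did not pass the test. Capitals mark both motifs in the stretch upstream of the start that holds them.
B2m: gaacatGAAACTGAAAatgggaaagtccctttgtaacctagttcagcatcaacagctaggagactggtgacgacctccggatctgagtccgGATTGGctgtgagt
H2-T23: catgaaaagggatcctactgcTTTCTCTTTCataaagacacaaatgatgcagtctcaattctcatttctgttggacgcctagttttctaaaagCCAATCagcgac
These are chr2:122147542-122147646 on the plus strand and chr17:36032742-36032846 on the minus strand of GRCm38.p6, from RefSeq. The ISRE core was present in 3.44% of all promoters, in 3 of 20 class I promoters (B2m, H2-T22, H2-T23), in 1 of 8 processing promoters (Psme1) and in none of the 8 class II promoters. The Y box was present in 16 of 20 class I and in 2 of 8 processing promoters. The interferon gamma activated sequence TTCNNNGAA was found in 2 class I promoters, in Psmb8 and in H2-DMb2, against 8.3% of all promoters. B2m fell and H2-T23, H2-T22 and Psme1 did not pass the test.

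Regulators of MHC genes were measured beside them. A probe named C2ta in the files resolved by accession to Ciita, the transactivator of class II, and lies outside the 69 members because the choice went by the name in the files. It read 1.39 and 1.63 in Sox2 -DOX, -2.29 and -2.11 in Sox2 +DOX, 0.57 and 0.15 in rtTA +DOX, -1.12 and -1.32 in Sox2xOct4 +DOX and -0.93 and -1.39 in Oct4 +DOX. All 6 arrays with an induced transgene were below the other 4, as for Cd74 and H2-Ab1, but Sox2 +DOX was the lowest group for Ciita and not for those genes. Ciita fell 13.1-fold after Sox2 induction (-3.71 ± 0.30, limma adjusted p = 9.7e-04). Of 19 other regulators of MHC genes 5 fell and none rose. They were the cytokine Ifng (-4.31, with 1 of 2 Sox2 +DOX arrays well above background), the interferon regulatory factors Irf1 (-2.51) and Irf9 (-1.24, named Isgf3g in the files), Stat2 (-2.30) and Socs1 (-2.69), whereas the subunits of the factors that bind the X and Y boxes (Rfx5, Rfxap, Rfxank, Nfya, Nfyb, Nfyc) did not pass the test. Among 28 genes of the interferon response 15 fell, with a median of -2.45, among them Cxcl9 (-4.13), Cxcl10 (-3.37), Ubd (-5.16) and Oas3 (-3.78). In Sox2 +DOX against rtTA +DOX, across slides, 8 of the 28 fell, with a median of -1.35. None of the 19 regulators passed the test there. Cxcl9 (-2.09), Cxcl10 (-2.36) and Oas3 (-4.32) were among the 8, whereas Ubd (-1.80) and Ifng (-1.66) did not pass the test. Between rtTA +DOX and Sox2 -DOX none of the 28 passed the test, with a median of -0.64, Ubd at -3.36 and Oas3 at 0.54.

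Neighbouring steps of both pathways were measured from genes outside the members. Of 12 other genes of class I peptide loading, among them the constitutive proteasome subunits Psmb5, Psmb6 and Psmb7, 1 fell, the tapasin relative Tapbpl (-1.78, limma adjusted p = 0.033). Of 11 tested genes of the class II pathway outside the members, 1 rose, the protease gene Ctsl (1.82), and 1 fell, Lag3 (-2.37), a receptor for class II on T cells. Of 10 measured class I-like genes without the H2 prefix, 1 rose, the lipid-presenting Cd1d2, and 1 fell, the antibody receptor gene Fcgrt (-1.81). Cd1d2 was not well above background on either Sox2 -DOX array and was at least 1.19-fold higher in Sox2 +DOX (limma adjusted p = 0.016).

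Markers of the cells that carry or read MHC molecules were measured beside the members. In whole tissue, fewer cells of a type and less RNA per cell cannot be told apart. Of 14 markers of T cells and intraepithelial lymphocytes 3 fell with Sox2 induction, Cd3d (-2.08), Gzmb (-3.68) and Cd5 (-1.71). The median difference of the 14 was -1.655. In Sox2 +DOX against rtTA +DOX, across slides, Cd3d alone fell (-1.64), and Gzmb (-1.45) and Cd5 (-0.64) did not pass the test. The log2 of the summed signal of the 14 markers was 4.86 to 5.13 in Sox2 -DOX and 2.82 to 3.27 in Sox2 +DOX. It was 3.48 to 4.46 in rtTA +DOX, 2.70 to 3.43 in Sox2xOct4 +DOX and 2.58 to 2.60 in Oct4 +DOX. This sum was thus lower on all arrays with an induced transgene than on the others, narrowly so between Sox2xOct4 +DOX and rtTA +DOX. Bright markers weigh most in it, and in Sox2 -DOX these were Gzma (3.61 and 3.13) and Gzmb (2.69 and 2.46). Of 13 B cell and plasma cell markers none passed the test in limma and none had an unadjusted p under 0.05. Their median difference was -0.98, and their sum was 5.83 to 6.84 in Sox2 -DOX and 4.90 to 5.83 in Sox2 +DOX. Of 13 tested dendritic cell and macrophage markers 1 rose, Cd68 (2.32), and none fell, with Clec9a not tested for its low signal. Unadjusted p was under 0.05 for 4 of the 13, and their median difference was -0.25. Their sums were 6.46 to 6.62 and 6.21 to 6.35 in the same groups. Of 12 epithelial markers none passed the test in limma and 4 had an unadjusted p under 0.05. Their median difference was -0.72, with sums of 10.84 to 10.85 and 10.12 to 10.46. The part of these markers in the falls of the members was not tested.

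Sox2xOct4 +DOX was compared with rtTA +DOX within slide 2, which asks whether the members also differ when both factors are induced and the controls received DOX too. Of the 59 probes 10 fell, of 6 genes, and none rose, where 3.14% of all probes fell and 2.93% rose. The median was -0.43 over the members and 0.03 over all probes. The arrays did not overlap for 25 probes that were lower, where 25% of all probes did so, and for 1 that was higher, where 26.8% did so. Of the 10 probes 9 were class II, from H2-Ab1 (4 probes, 2 of which overlap in sequence), H2-DMb1 (2), H2-DMa, H2-Eb1 and Cd74. The class II median was -2.13. The count was 0 without rtTA +DOX replicate 1, 2 without rtTA +DOX replicate 2, 0 without Sox2xOct4 +DOX replicate 1 and 7 without Sox2xOct4 +DOX replicate 2. It was 1 when only the 4 arrays compared were fitted.

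For H2-DMa, which read 1.91 and 1.13 in rtTA +DOX and -1.52 and -0.97 in Sox2xOct4 +DOX, the fall was 6.78-fold (-2.76 ± 0.46, limma adjusted p = 0.017). H2-Ab1 fell 4.18-fold on its brightest probe (-2.06 ± 0.42, limma adjusted p = 0.030), and its other probes gave -2.46, -2.86 and -3.05. H2-DMb1 fell by 2.13 and 2.23, Cd74 by 2.11 and H2-Eb1 by 1.81 (limma adjusted p = 0.022, 0.035, 0.031 and 0.042). H2-Aa did not pass the test on either probe (-2.37 and -2.44, limma adjusted p = 0.055 and 0.053), and its rtTA +DOX arrays, at 3.91 and 2.17, were far apart. H2-Oa, H2-Ob and H2-DMb2 gave values between -0.19 and 0.10.

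The tenth probe was that of H2-T3, the thymus leukaemia antigen, a class I molecule of the small intestinal epithelium that binds CD8. It read 2.24 and 1.89 in rtTA +DOX, -0.32 and 0.33 in Sox2xOct4 +DOX, 2.16 and 1.55 in Sox2 -DOX, 0.02 and 0.84 in Sox2 +DOX and a mean of 1.08 ± 0.03 (SD, n = 2) in Oct4 +DOX. The 6 arrays with an induced transgene lay below the 4 without one, with Oct4 +DOX between. H2-T3 fell 4.18-fold in Sox2xOct4 +DOX (-2.06 ± 0.39, limma adjusted p = 0.025) and did not pass the test between Sox2 +DOX and Sox2 -DOX (-1.43 ± 0.39, limma adjusted p = 0.065).

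No other class I probe and no processing probe passed the test between Sox2xOct4 +DOX and rtTA +DOX. The class I median was -0.27 and that of processing -0.46, with 11 of 11 processing values below 0 and 3 of them at an unadjusted p under 0.05. Psmb9 gave -1.02 (limma adjusted p = 0.14), B2m -1.19 (limma adjusted p = 0.13) and Tap1 -0.46 (limma adjusted p = 0.51). Ciita fell 2.99-fold (-1.58 ± 0.30, limma adjusted p = 0.025). Of the 19 regulators 1 fell, Jak2 (-1.32), chosen for naming after its value was seen. Of the 28 interferon response genes none fell and 4 rose, Ifit3 (1.98), Mx2 (2.42), Oas2 (3.05) and Zbp1 (1.64), named after their values were seen. Of the class I-like genes Cd1d1 (2.35) and Cd1d2 (2.89) rose, the latter with 1 of 2 rtTA +DOX arrays well above background. None of the T cell, B cell, dendritic cell and macrophage or epithelial markers passed the test in limma, with 5, 3, 0 and 5 of them at an unadjusted p under 0.05. The T cell sum was 2.70 to 3.43 in Sox2xOct4 +DOX against 3.48 to 4.46 in rtTA +DOX, and the B cell and plasma cell sum 4.92 to 4.96 against 5.80 to 5.95, both without overlap. The part of these markers in the class II falls was not tested.

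The difference between the response to Sox2 (slide 1) and the response to both factors (slide 2) was itself tested. The slide 1 response is against an untreated group, whereas on slide 2 both groups received DOX. The tested difference thus holds DOX with sucrose besides the transgenes, and slide and sex-linked transcripts differ too. These cannot be told apart. The difference passed for none of the 59 member probes in limma, where 0.0104% of all probes passed as higher and 0.125% as lower. An unadjusted p under 0.05 was found for 15 members. The median difference of the responses was -0.996, and 54 of 59 values were below 0. Over the classes the median was -1.04 for class I, -0.996 for processing and -0.996 for class II. For Tap1 the difference was -1.88 (limma adjusted p = 0.31), for H2-DMb1 -1.29 (limma adjusted p = 0.51) and for H2-T3 0.64 (limma adjusted p = 0.78). A difference in size between the 2 responses was thus not detectable for any member with these arrays.

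**Figure D3:**
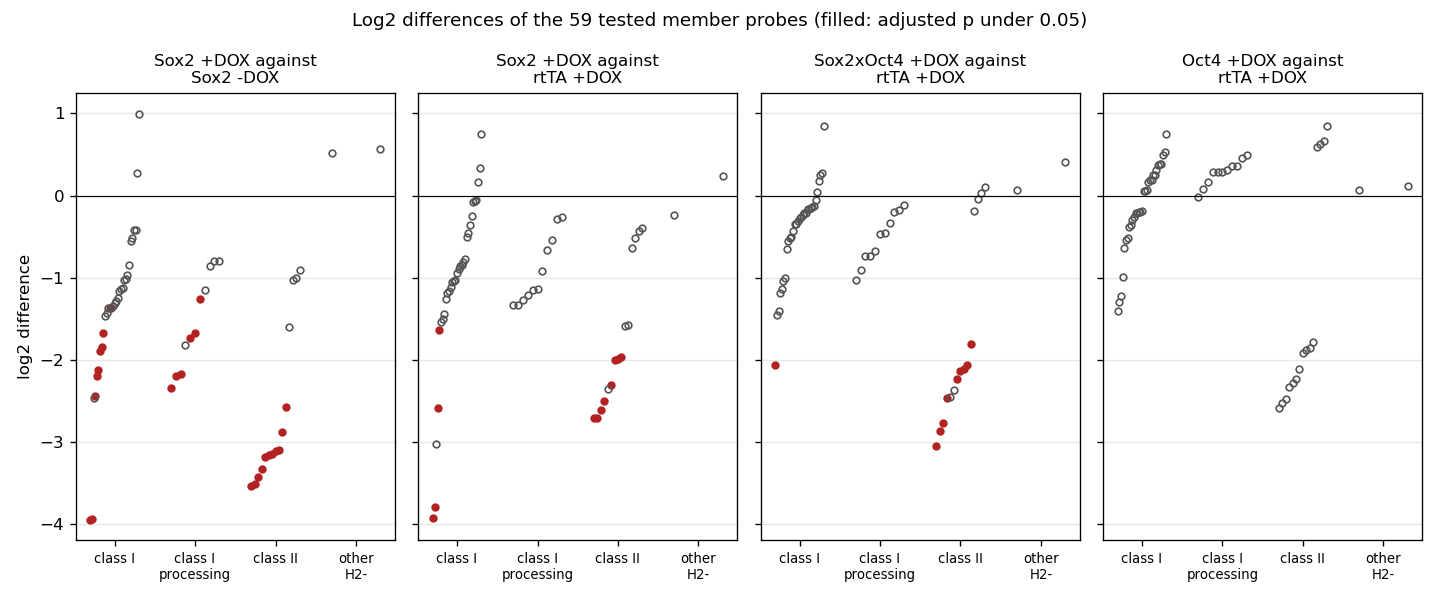
Log2 differences of the 59 tested member probes (vertical axis) by class (horizontal axis) in 4 comparisons, 1 point per probe in order of its value; filled points have an adjusted p under 0.05. Filled points number 26, 12, 10 and 0 from left to right, and in Oct4 +DOX the class II probes form a group of 11 between -2.58 and -1.78 and a group of 4 above 0.

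Oct4 +DOX was compared with rtTA +DOX across slides 3 and 2. Replicate 1 of Oct4 +DOX carried Eif2s3y, whereas its replicate 2 and both rtTA +DOX arrays carried Xist. The rtTA +DOX arrays are shared with the comparison of Sox2xOct4 +DOX, so the 2 sets of values are not independent. None of the 59 probes passed the test in limma, where 0.261% of all probes fell and 0.675% rose, and 12 had an unadjusted p under 0.05. The count was 2, both class II, under quantile normalization and 1, also class II, when only the 4 arrays compared were fitted. The arrays did not overlap for 19 probes that were lower, where 23.9% of all probes did so, and for 11 that were higher, where 20.9% did so. Of 15 class II probes 11 had an unadjusted p under 0.05, all lower in Oct4 +DOX, and so had 1 of 31 class I and 0 of 11 processing probes. The class II median was -1.91, that of class I -0.18 and that of processing 0.29.

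The 11 probes were those of H2-Aa, H2-Ab1, H2-Eb1, H2-DMa, H2-DMb1 and Cd74, the genes that fell after Sox2 induction. H2-DMa gave -2.47 ± 0.46 (limma adjusted p = 0.053), H2-DMb1 -2.11 ± 0.39 (limma adjusted p = 0.052), Cd74 -1.91 ± 0.44 (limma adjusted p = 0.098), H2-Eb1 -1.88 ± 0.41 (limma adjusted p = 0.089) and the brightest H2-Ab1 probe -1.85 ± 0.42 (limma adjusted p = 0.099). Values of the 4 probes of H2-DMb2, H2-Oa and H2-Ob were 0.59 to 0.85, higher in Oct4 +DOX with no overlap of arrays. Ciita gave -1.52 ± 0.30 (limma adjusted p = 0.064). Among processing genes Psmb9 stood at 3.47 and 3.28 in Oct4 +DOX against 3.50 and 3.30 in rtTA +DOX, and Tapbp at 5.40 and 5.64 against 5.46 and 4.66. The T cell marker sum was lower in Oct4 +DOX, at 2.58 to 2.60 against 3.48 to 4.46, with 7 of 14 markers at an unadjusted p under 0.05 and none past the test in limma. The sum of B cell and plasma cell markers was lower too, at 4.66 to 4.88 against 5.80 to 5.95, with 2 of 13 markers at an unadjusted p under 0.05, the plasma cell genes Igj (-2.03) and Tnfrsf17 (-2.87), and none past the test in limma. Both were named after their values were seen. The dendritic cell and macrophage sum overlapped, at 6.31 to 6.54 against 5.81 to 6.49. The part of these markers in the class II values was not tested.

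Sox2 +DOX against rtTA +DOX sets slide 1 against slide 2, and arrays with Eif2s3y against arrays with Xist, and shares arrays with each of the comparisons above. Of the 59 probes 12 fell, of 7 genes, where 4.58% of all probes fell, and none rose, where 3.06% did. The arrays did not overlap for 40 lower probes, against 32.8% of all probes, and for 1 higher probe, against 29.9%. The 12 were 8 class II probes (H2-Ab1 on 3 probes, H2-Aa and H2-DMb1 on 2 each, H2-DMa) and 4 class I probes (H2-Bl on 2, H2-Q1, H2-T3). The differences of the class II calls ran from -2.71 to -1.96. No processing probe passed the test in limma, and 6 of 11 had an unadjusted p under 0.05, with a median of -1.13. Leaving out Sox2 +DOX replicate 1 gave 2 calls and its replicate 2 gave 13, and leaving out rtTA +DOX replicate 1 gave 0 and its replicate 2 gave 4. It was 7 with no filter on dim probes and 2 when only the 4 arrays compared were fitted.

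The 2 groups without an induced transgene were not at the same level. Between rtTA +DOX and Sox2 -DOX no member passed the test in limma, where 0% of all probes did in either direction, and 13 members had an unadjusted p under 0.05. By value 51 of 59 were lower in rtTA +DOX, with a median of -0.52. The arrays did not overlap for 27 lower probes, against 22.3% of all probes, and for 2 higher probes, against 20.1%. All 15 class II probes were lower, with a median of -0.82. The largest of these was Cd74, at -1.52 (limma adjusted p = 0.58). DOX with sucrose, the Sox2 transgene, slide and the sex-linked transcripts all differ between these groups and cannot be told apart.

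Array by array, the classes did not follow the same order. The median deviation of class II probes from their mean over the 10 arrays was 2.38 and 1.63 in Sox2 -DOX, 1.45 and 0.35 in rtTA +DOX, -1.27 and -0.80 in Sox2 +DOX, -1.26 and -0.75 in Sox2xOct4 +DOX and -0.91 and -0.86 in Oct4 +DOX. For processing probes it was 0.75 and 0.64 in Sox2 -DOX, 0.44 and -0.19 in rtTA +DOX, -1.28 and -0.55 in Sox2 +DOX, -0.50 and -0.46 in Sox2xOct4 +DOX and 0.37 and 0.34 in Oct4 +DOX. Oct4 +DOX thus lay with the lower arrays for class II and with the higher ones for processing. For class I the Sox2xOct4 +DOX arrays stood at -0.44 and 0.22 and the rtTA +DOX arrays at 0.52 and -0.12, so these groups overlapped.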

How the data were processed

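The arrays were Agilent 1-colour mouse arrays, and the deposited scanner files hold, per the file headers, background-subtracted processed intensity per spot from Agilent Feature Extraction 9.5.3.1, 10.7.1.1 and 10.7.3.1 by slide, whereas the submitters' processing notes name version 9.1. The authors' table of the 4 TetON-Sox2 arrays, also intensity, was used as an alternative; how it was scaled is not stated. Flagged and control spots were left out, spots of a probe averaged, and each array's log2 signal was centred on its 75th percentile, which was a signal of 544.2 to 1612.8. The filter kept 28761 of 41143 probes, those with both arrays of some group well above background. limma 3.58.1 in R 4.3.3 fitted 1 mean per group over the 10 arrays, with Benjamini-Hochberg adjustment over all kept probes; the procedure was tested on simulated data. Where several probes measured a gene, values by array are those of the probe with the highest mean. Alternatives covered background correction, quantile normalization, the filter, a signal floor, 1 probe per gene, the arrays fitted, blocks and leaving out each array. Replicate numbers did not pair the samples: deviations of same-numbered arrays correlated at -0.134 to 0.261. The members, gene lists and the rule for named genes were chosen with earlier results of these data known. Probe coordinates are those of the files. The part of the transcript that a probe covers was not analysed here. Promoter sequences and current symbols came from RefSeq, which named 86.8% of kept probes.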

Additional observations from a re-analysis of the deposited data

Results flagged for a closer look

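The interferon-induced gene Oas2, a member of no MHC class, responded differently in the 2 within-slide comparisons. It fell by 2.39 on the log2 scale after Sox2 induction and rose by 3.05 in Sox2xOct4 +DOX against rtTA +DOX. The difference of the responses was -5.45 (limma adjusted p = 0.023), the only one among the tested members and listed genes that passed. Because Sox2 -DOX was untreated and rtTA +DOX was not, this difference also holds DOX with sucrose.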

How the results depend on the processing

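With 2 arrays per group, leaving out 1 array moved the counts of member probes called over 1 to 25 for Sox2 +DOX against Sox2 -DOX, 0 to 7 for Sox2xOct4 +DOX against rtTA +DOX and 0 to 13 for Sox2 +DOX against rtTA +DOX, against 26, 10 and 12; a group left with 1 array was assumed to vary like the others. With 1 probe per gene the counts were 14, 6 and 5, over fewer features, and with only the groups compared 15, 1 and 2, over fewer arrays. Oct4 +DOX against rtTA +DOX gave 2 calls under quantile normalization and 1 with only the groups compared, against 0, and Sox2 +DOX against rtTA +DOX gave 7 with no filter on dim probes; the cause was not tested. With the replicate number as a block the counts were 26, 9 and 11, and with the slide as a block 26 and 10 for the 2 within-slide comparisons; a slide block could not be fitted between slides. The authors' table gave 19 calls for Sox2 +DOX against Sox2 -DOX. Normexp with quantile normalization moved the share of higher calls among all calls there from 40.5 to 50.8%. Signs turned when 1 array was left out for Tapbp (range -0.738 to 0.0596) and Tap1 (-0.977 to 0.0502) without rtTA +DOX replicate 1, for H2-T23 (-0.54 to 0.27) without Sox2xOct4 +DOX replicate 1 and for H2-K1 (-0.19 to 0.69) without Sox2xOct4 +DOX replicate 2, all in Sox2xOct4 +DOX against rtTA +DOX, where none had passed the test.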
